A study of Homo sapiens with 6 samples.

Results

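LRP2 encodes megalin, a very large endocytic receptor of the low-density lipoprotein (LDL) receptor family. It was examined here with 8 receptor relatives (LRP1, LRP1B, LRP3, LRP4, LRP8, LRP10, LRP12 and VLDLR) and with LRPAP1, the chaperone of these receptors. The 10 genes were found by symbol among 62703 rows of a table of estimated counts, and all 10 passed the filter on low counts that left 15693 genes for testing. LRP2 was picked for its large rise in the comparison made here, so its values are given as a description without a test. The other 9 genes were picked as relatives by family.

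Receptors of this family bind ligands at the cell surface through clusters of cysteine-rich repeats, enter the cell by clathrin-coated pits and release their ligands in endosomes. Megalin is best known from the kidney proximal tubule, where it retrieves filtered proteins together with the co-receptor cubilin, and from other absorptive epithelia. Relatives serve lipoprotein uptake, clearance of protease inhibitor complexes, and signalling by reelin, agrin and Wnt proteins. The large members also carry EGF-like repeats, the kind of module to which GXYLT2 adds xylose in Notch receptors.

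The cells were HGC-27, a long-established line from a human gastric cancer, grown in medium with 10% fetal bovine serum, and their mRNA was sequenced. The shControl group (genotype given as WT) carried a control shRNA and the shGXYLT2 group (GXYLT2 knockdown) an shRNA against GXYLT2, with 3 libraries each. The shGXYLT2 cells are described as 1 stably transfected strain, so other shRNAs or strains were not compared. The labels do not say whether replicates were separate cultures, so the p-values cover only the spread between these libraries, which may be technical. Totals ran from 17291138 to 24898425 estimated counts per library. GXYLT2 was at 20.7, 22.8 and 20.2 CPM (the usual counts-per-library-size scale, here with TMM factors) in shControl and at 5.27, 6.27 and 5.34 CPM in shGXYLT2, in the direction of the labels. Its paralog GXYLT1 fell as well, from a mean of 73.3 CPM in shControl to 35.4 CPM in shGXYLT2 (log2 fold change -1.05, edgeR adjusted p = 3.7e-08). Of 12 gastric epithelial markers 9 stayed below 1 CPM in every library, EPCAM, KRT18, KRT19, TFF1 and MUC5AC among them. The epithelial cadherin gene CDH1 averaged 2.92 and 2.33 CPM. The mesenchymal filament gene VIM averaged 2669 and 2526 CPM, but the mesenchymal cadherin gene CDH2 only 0.0338 and 0.166 CPM. In RNA from many cells, a higher level in each cell and a larger share of cells with the transcript cannot be told apart.

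Sequence upstream of the annotated start is shown for LRP2 and LRP8, the members with the largest rise and the largest fall. LRP2 (ENSG00000081479) spans bases 169127109 to 169362685 of chromosome 2 on the minus strand (GRCh38), and the stretch shown covers bases 169362686 to 169362784. LRP8 (ENSG00000157193) spans bases 53242364 to 53328070 of chromosome 1, also on the minus strand, and its stretch covers bases 53328071 to 53328320. Both are from RefSeq (GRCh38.p14) and are written 5′ to 3′, with any GC box (GGGCGG on either strand) in capitals; the LRP2 stretch holds 0.
LRP2: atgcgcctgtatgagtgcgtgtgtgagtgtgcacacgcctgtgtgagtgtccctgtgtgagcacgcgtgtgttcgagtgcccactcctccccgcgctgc
LRP8: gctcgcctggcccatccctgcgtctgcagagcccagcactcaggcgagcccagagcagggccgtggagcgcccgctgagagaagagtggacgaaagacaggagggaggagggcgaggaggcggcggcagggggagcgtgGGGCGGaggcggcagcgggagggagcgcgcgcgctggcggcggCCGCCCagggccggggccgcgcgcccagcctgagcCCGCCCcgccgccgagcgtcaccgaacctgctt
The LRP2 stretch is shorter because GENCODE places the first LRP2 start 151 bases before that of RefSeq. RefSeq promoter windows of 300 bases, from 250 before to 50 after a start, were found for 7 of the 10 genes; LRP1B, LRP4 and LRP12 have no entry in the table. All 7 genes held a GC box, in each of their 8 windows, against 45.0% of 35116 windows. These 8 windows were 56.3% to 83% G or C, and the share in other windows is not given here. The LRP3 window (chromosome 19, bases 33194080 to 33194379) lies well inside the GENCODE gene, which starts at base 33177603. The LRP2 window held 3, all after the GENCODE start, and the LRP8 window held 5. TATAAA (11.5% of windows) and the nuclear receptor half-site AGGTCA (13.8%) were searched on both strands and stood in 0 of the 7, and CCAAT (34.6%) only in LRP10. These are matches of letters, and binding was not measured.

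LRP2 was low in shControl and several times higher in shGXYLT2. The shControl libraries held 49, 46 and 60 counts of it and the shGXYLT2 libraries 510, 538 and 465. On the CPM scale these were 2.82, 2.70 and 2.64 against 20.4, 21.9 and 20.9. Every shGXYLT2 library lay above every shControl library, with little spread inside either group. The mean was 2.72 ± 0.0906 CPM in shControl and 21.1 ± 0.780 CPM in shGXYLT2 (SD, n = 3 each), a ratio of 7.75 and a log2 fold change of 2.95. This was the third highest log2 fold change of the 15693 genes, a rank that the choice of LRP2 fixes. GENCODE lists 0 other genes that overlap LRP2 on either strand.

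**Figure D1:**
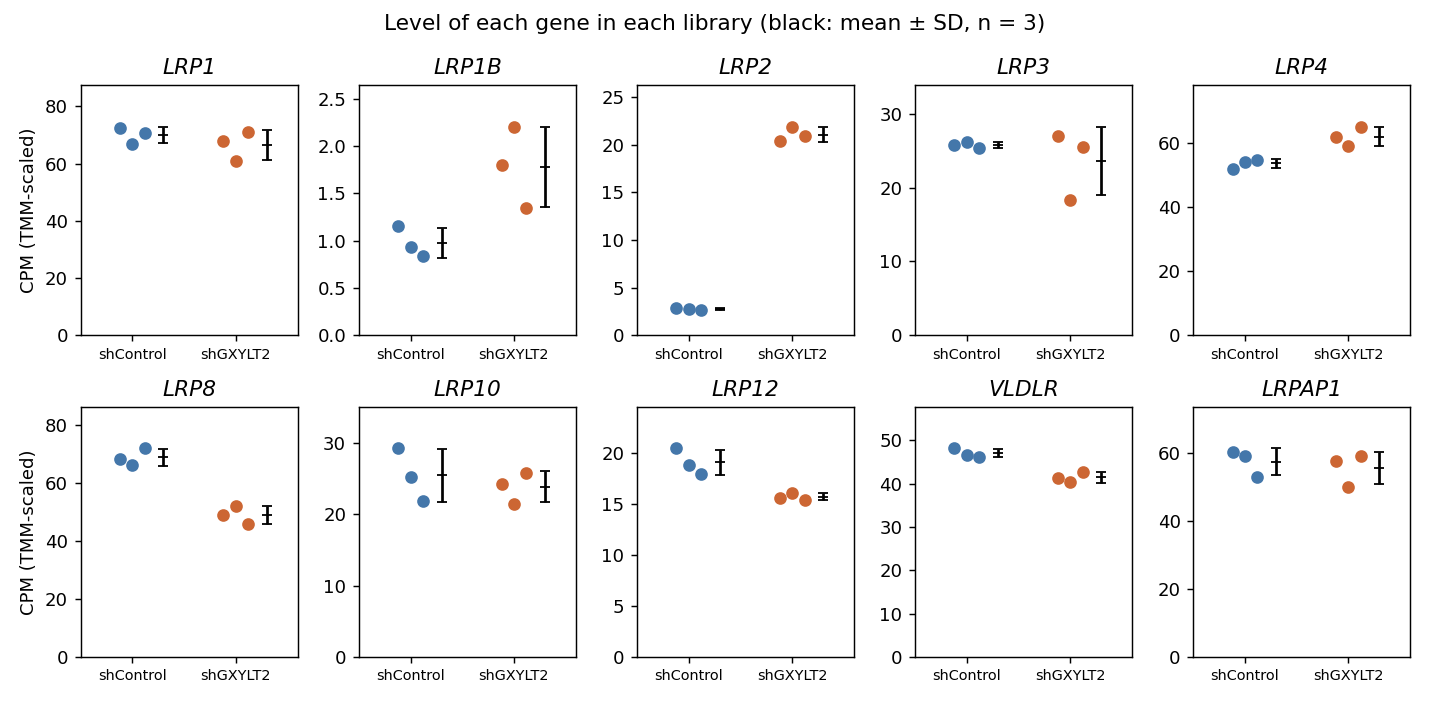
TMM-scaled CPM (linear axes from 0) of the 10 genes in the 3 shControl libraries (blue points) and 3 shGXYLT2 libraries (orange points), with the mean ± SD in black. LRP2 goes from 2.72 to 21.1 CPM and LRP8 from 68.8 to 48.9 CPM, while the groups overlap for LRP1, LRP3, LRP10 and LRPAP1. Over all tested genes, the groups do not overlap for 30.5%.

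Per length, LRP2 stayed a minor member of the family. CPM were divided by the deposited gene length in kilobases to compare levels between genes. That length has no stated definition, and the order depends on it. For LRPAP1 it is 10446 bases, beside a longest annotated 3′ UTR of 9377 bases. LRP8 led in shControl with a level of 8.92 CPM per kb, ahead of LRP4 (6.57), LRP3 (6.34), LRPAP1 (5.49), VLDLR (5.10), LRP1 (4.70), LRP12 (4.35) and LRP10 (3.69). LRP2 followed at a level of 0.174 CPM per kb and LRP1B came last at 0.0615. Neighbours in this order whose libraries overlapped were LRP4 and LRP3, LRPAP1 and VLDLR, LRP1 and LRP12, and LRP12 and LRP10. In shGXYLT2, LRP4 came first at a level of 7.60 CPM per kb (7.25 to 7.98 over the libraries) and LRP8 second at 6.35 (5.96 to 6.75), and their libraries did not overlap. LRP3 came next at 5.82 (4.52 to 6.66), and its libraries overlapped those of LRP8, so their order is not settled. LRP2 kept the ninth of the 10 places at a level of 1.35 CPM per kb. The 9 receptors summed to 39.4 to 40.8 CPM per kb in shControl and 35.3 to 38.3 in shGXYLT2, and LRP2 made up 0.426% to 0.441% of that sum in shControl and 3.42% to 3.97% in shGXYLT2.

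Of the 9 relatives, LRP1B and LRP4 rose, LRP8 and LRP12 fell, which is 44.4%, and 5 did not pass (edgeR, quasi-likelihood, p adjusted by Benjamini-Hochberg over all genes, threshold 0.05). Among all tested genes 12.2% passed, 5.31% upward (833) and 6.84% downward (1074); with upper-quartile factors 1024 genes passed upward and 963 downward. The median log2 fold change of the 9 was -0.09, against -0.01 over all genes. For 3 of the 4 the adjusted p was just under the threshold. The count of changed relatives was 1 by DESeq2, 1 whenever shControl replicate 1, 2 or 3 or shGXYLT2 replicate 1 was left out, and 2 when shGXYLT2 replicate 2 was. LRP8 passed in each of these fits. Groups without overlap, given below for single genes, were common, at 30.5% of all tested genes.

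LRP8, also called apolipoprotein E receptor 2, is a receptor for reelin and selenoprotein P. Its level was 68.3, 66.2 and 71.8 CPM in shControl and 49.0, 52.0 and 45.9 CPM in shGXYLT2. The groups lay well apart, with all 3 shGXYLT2 libraries lower. The log2 fold change was -0.49 (SE 0.069; edgeR adjusted p = 8.0e-05), and the adjusted p ran from 1.9e-08 to 0.0025 over the 12 alternatives. An antisense gene that overlaps LRP8 reached at most 0.681 CPM.

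LRP4 (ENSG00000134569, chromosome 11, bases 46856868 to 46918642, minus strand) is the agrin receptor of the neuromuscular junction and also takes part in Wnt signalling. It stood at 51.9, 54.1 and 54.8 CPM in shControl and 61.7, 59.1 and 65.1 CPM in shGXYLT2. The groups did not overlap, but the rise was small, at a log2 fold change of 0.21 (SE 0.066; edgeR adjusted p = 0.045). Leaving out shControl replicates 1, 2 or 3 gave an edgeR adjusted p of 0.22, 0.12 and 0.12, leaving out shGXYLT2 replicate 1 gave 0.11, and DESeq2 gave 0.062.

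LRP1B (ENSG00000168702), a close relative of LRP1 whose gene spans 1900279 bases of chromosome 2 (140231423 to 142131701, minus strand), was barely detected. It had 20, 16 and 19 counts in shControl and 45, 54 and 30 counts in shGXYLT2, or 1.15, 0.937 and 0.836 against 1.80, 2.20 and 1.35 CPM. The groups stood apart, although no other of the 10 genes had so wide a relative spread in either group. On the log2 scale it rose by 0.88 (SE 0.283; edgeR adjusted p = 0.047). The adjusted p was 0.18 by DESeq2 and, in edgeR, 0.071, 0.12 and 0.18 when shControl replicates 1, 2 or 3 were left out and 0.098 and 0.17 when shGXYLT2 replicates 1 or 2 were.

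LRP12 (ENSG00000147650), a smaller member with CUB domains, stood at 20.4, 18.8 and 18.0 CPM in shControl and 15.5, 16.0 and 15.4 CPM in shGXYLT2. All shGXYLT2 libraries were below all shControl libraries, by 0.28 on average on the log2 scale (SE 0.090; edgeR adjusted p = 0.049). The call was lost whichever library was left out: the edgeR adjusted p was 0.26, 0.12 and 0.081 for shControl replicates 1, 2 and 3, and 0.13, 0.059 and 0.062 for shGXYLT2 replicates 1, 2 and 3. It was also lost with upper-quartile factors (0.071), without a filter (0.10) and by DESeq2 (0.12).

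VLDLR (ENSG00000147852), the very-low-density lipoprotein receptor and the other receptor for reelin, did not pass. Its level was 48.1, 46.7 and 46.2 CPM in shControl and 41.2, 40.3 and 42.8 CPM in shGXYLT2 (log2 fold change -0.18, SE 0.068; edgeR adjusted p = 0.086). The groups did not overlap. Of the 12 alternatives, VLDLR passed in 1, the fit without shGXYLT2 replicate 3 (edgeR adjusted p = 0.034). Its edgeR adjusted p reached 0.31 without shControl replicate 1. An antisense gene, VLDLR-AS1, reached at most 1.52 CPM.

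The remaining members gave overlapping groups. LRP1, a widely expressed clearance receptor for protease inhibitor complexes, had a shControl mean of 70.1 ± 2.87 CPM and a shGXYLT2 mean of 66.7 ± 5.22 CPM (SD, n = 3; adjusted p = 0.57 in edgeR). LRPAP1, the chaperone that keeps ligands off the receptors in the endoplasmic reticulum, averaged 57.4 ± 3.95 CPM and then 55.6 ± 4.82 CPM (SD, n = 3; adjusted p = 0.77 in edgeR). LRP10 and LRP3, which like LRP12 carry CUB domains, had log2 fold changes of -0.09 (SE 0.102) and -0.12 (SE 0.115). LRP3 was tight in shControl (25.3 to 26.1 CPM) and spread in shGXYLT2 (27.0, 18.3 and 25.5 CPM), where replicate 2 was low. The log2 fold changes of LRP3 and LRPAP1 turned to 0.03 and 0.02 without shGXYLT2 replicate 2, and that of LRP10 to 0.02 without shControl replicate 1. The overlapping gene STAT6, on the strand opposite to LRP1, was at 123 to 135 CPM, and the sources used here do not say if reads were counted by strand.

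**Figure D2:**
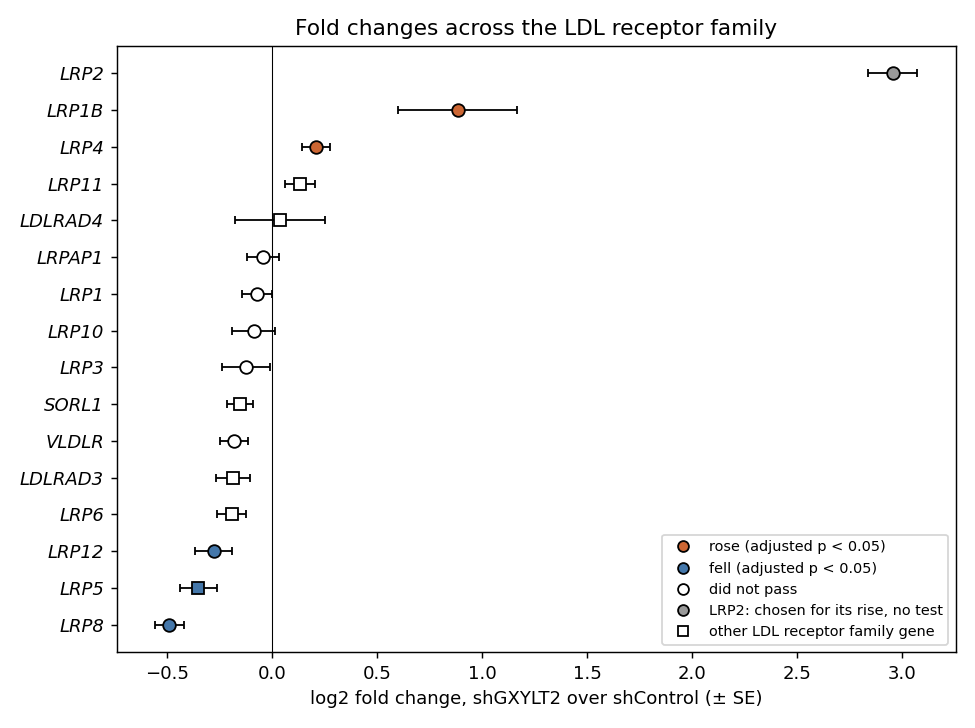
Log2 fold change of shGXYLT2 over shControl ± SE for the 10 genes (circles) and 6 further genes of the family (squares), filled where the gene passed the edgeR test, with LRP2 in grey as it was not tested. LRP2 stands at 2.95, LRP1B next at 0.88, and the other genes lie between -0.49 (LRP8) and 0.21 (LRP4).

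Among 9 further genes of the LDL receptor family, 7 were tested, 0 rose and 1 fell (edgeR and DESeq2 alike), or 14.3%, near the 12.2% of all genes, with a median log2 fold change of -0.15; 4 genes, all lower in shGXYLT2, had an unadjusted p below 0.05. The fallen gene was LRP5, a Wnt co-receptor, at 38.2, 39.1 and 35.5 CPM in shControl and 31.8, 25.4 and 31.1 CPM in shGXYLT2 (edgeR adjusted p = 0.012). Leaving out shControl replicate 1 or 2 gave 0.060 and 0.071, and so 0 changed genes in this list. The genes LRP6, SORL1, LRP11, LDLRAD3 and LDLRAD4 were named after their values were seen. LRP6, the other Wnt co-receptor, averaged 90.7 and 79.3 CPM (edgeR adjusted p = 0.073). SORL1, a sorting receptor, averaged 90.8 and 81.7 CPM (edgeR adjusted p = 0.11). LRP11, LDLRAD3 and LDLRAD4 had log2 fold changes of 0.13, -0.19 and 0.04 and did not pass, and LDLRAD1 and LDLRAD2 were too low to test.

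Genes around LRP2 were described by their distance from its start. GENCODE lists 31 other genes that start within 1 Mb of the LRP2 start, 18 of them protein-coding, and 14 were tested. Of these 1 rose and 1 fell, or 14.3% against 12.2% of all genes, and the median log2 fold change was -0.06. KLHL41, which encodes a kelch protein known from skeletal muscle and starts 147 kb from the LRP2 start, stood at 5.52, 5.73 and 6.70 CPM in shControl and 11.2, 11.5 and 9.70 CPM in shGXYLT2 (log2 fold change 0.85, SE 0.126; edgeR adjusted p = 1.6e-04). KLHL41 is uncertain, since a further annotated gene, AC093899.2 (at most 1.40 CPM), overlaps it on the same strand. BBS5, which starts 116.5 kb from the LRP2 start on the same side, averaged 10.6 and 11.9 CPM (edgeR adjusted p = 0.42). The ceramide synthase gene CERS6 fell from 85.4 to 72.9 CPM; its edgeR adjusted p of 0.033 became 0.12, 0.096 and 0.15 with shControl replicates 1, 2 or 3 left out and 0.060 with shGXYLT2 replicate 1 left out.

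**Figure D3:**
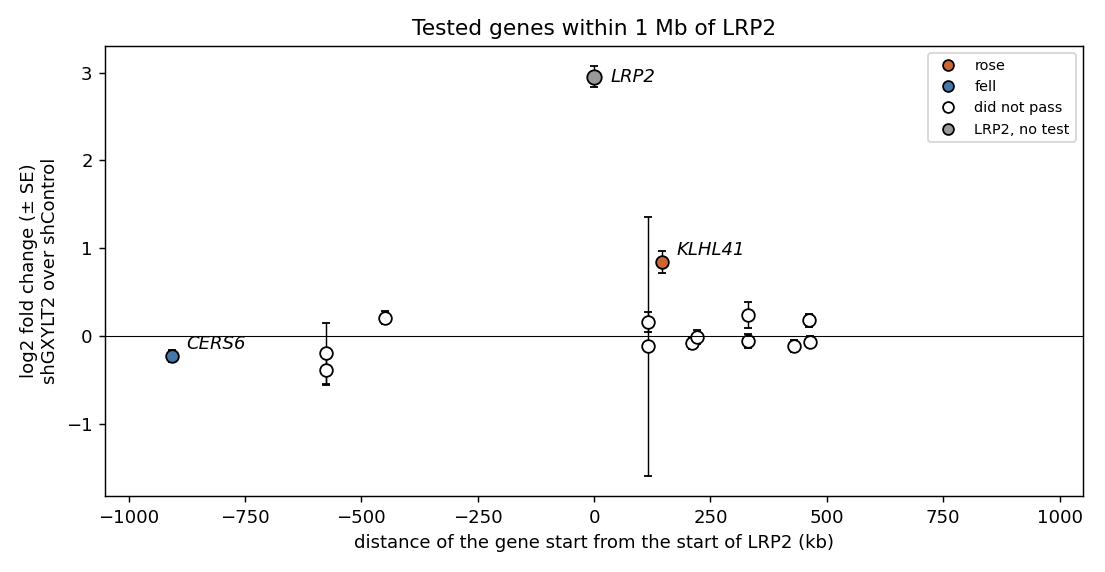
Log2 fold change of shGXYLT2 over shControl ± SE of the 14 tested genes whose starts lie within 1 Mb of the LRP2 start (x axis, distance in kb), with LRP2 in grey. LRP2 stands at 2.95 and KLHL41 at 0.85; 12 of the neighbours did not pass.

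Of 21 co-receptors, chaperones and adaptors of the receptors 19 were tested, and 14 of these did not pass. The list held 3 risen and 2 fallen genes, or 26.3% against 12.2% of all genes, with a median log2 fold change of -0.04. DAB2, the adaptor that links the megalin tail to clathrin, fell from 12.3, 9.37 and 11.6 CPM to 5.91, 5.21 and 6.33 CPM (log2 fold change -0.93, SE 0.132; edgeR adjusted p = 8.4e-05). DAB2 was lower in all 3 shGXYLT2 libraries, where LRP2 was higher, and its adjusted p stayed between 7.8e-10 and 0.0020 over the alternatives. APPL1, an adaptor of early endosomes, fell from 85.5 to 64.4 CPM (edgeR adjusted p = 0.0016). NUMB, an endocytic adaptor that also inhibits Notch, rose from 49.8 to 60.5 CPM (adjusted p = 0.0080). MAPK8IP1, a scaffold of JNK signalling that binds receptor tails, rose from 4.02 to 6.0 CPM, and SNX17, which recycles LRP1 from endosomes, from 73.0 to 84.8 CPM.

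The co-receptor CUBN (cubilin) was at 1.03, 1.82 and 1.58 CPM in shControl and 1.16, 0.814 and 0.494 CPM in shGXYLT2, overlapping groups that did not pass (edgeR adjusted p = 0.11). AMN, which anchors cubilin, stayed at or below 0.241 CPM. Leaving out shControl replicate 1 left 2 changed partners, and leaving out shControl replicate 2 or 3 or shGXYLT2 replicate 1 left 3. NUMB was lost without shControl replicate 1 or 3 (edgeR adjusted p = 0.076 and 0.052). MAPK8IP1 was lost without shControl replicate 1 or 2 or shGXYLT2 replicate 1 (0.076, 0.068 and 0.099). SNX17 was lost without each shControl replicate (0.11 to 0.15) and without shGXYLT2 replicate 1 (0.059).

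Among ligands of the family more genes fell than rose. Of 44 listed ligands 23 were tested, 3 rose and 8 fell, or 47.8% against 12.2% of all genes, with a median log2 fold change of -0.06. The apolipoprotein gene APOE, a ligand of nearly all these receptors, fell from 38.3, 37.9 and 38.1 CPM to 22.9, 19.5 and 20.9 CPM (log2 fold change -0.85, SE 0.080; edgeR adjusted p = 5.1e-07). DKK1, a Wnt antagonist that binds LRP5 and LRP6, went from 34.6, 35.5 and 33.0 CPM to 14.5, 14.9 and 14.9 CPM, the largest log2 fall among the ligands (-1.22). THBS1, the matricellular thrombospondin-1, fell from 60.9 to 37.7 CPM (edgeR adjusted p = 1.4e-06). BMP4, which megalin can bind, fell by 0.81 and SERPINE2, a protease inhibitor cleared by LRP1, fell by 1.09 on the log2 scale.

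Selenoprotein P, from SELENOP, is a selenium carrier taken up by LRP8 and megalin, and it rose from 1.38, 1.46 and 1.03 CPM to 3.04, 3.20 and 2.87 CPM (log2 fold change 1.24, SE 0.217; edgeR adjusted p = 7.5e-04). TFPI, an inhibitor of coagulation, rose from 9.52 to 14.4 CPM, and APOM, a lipocalin of lipoproteins, from 1.69 to 3.12 CPM (edgeR adjusted p = 0.0042 and 0.014). CLU, CCN2 and MMP2 fell by 0.30, 0.31 and 0.32 on the log2 scale. BMP4, SERPINE2, CLU, CCN2 and MMP2 were named after their values were seen. The ligands PSAP and AGRN averaged 457 and 483 CPM, and 129 and 134 CPM, and did not pass. Changed ligands numbered 7 without shControl replicate 1, where APOM (edgeR adjusted p = 0.060), CLU (0.054), CCN2 (0.16) and MMP2 (0.19) were lost. Each of these 4 was also lost without at least 2 other libraries, with adjusted p of up to 0.090, 0.085, 0.15 and 0.12. The 21 ligands that were not tested stayed below 1 CPM in every library, RELN, APOB, ALB and RBP4 among them.

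**Figure D4:**
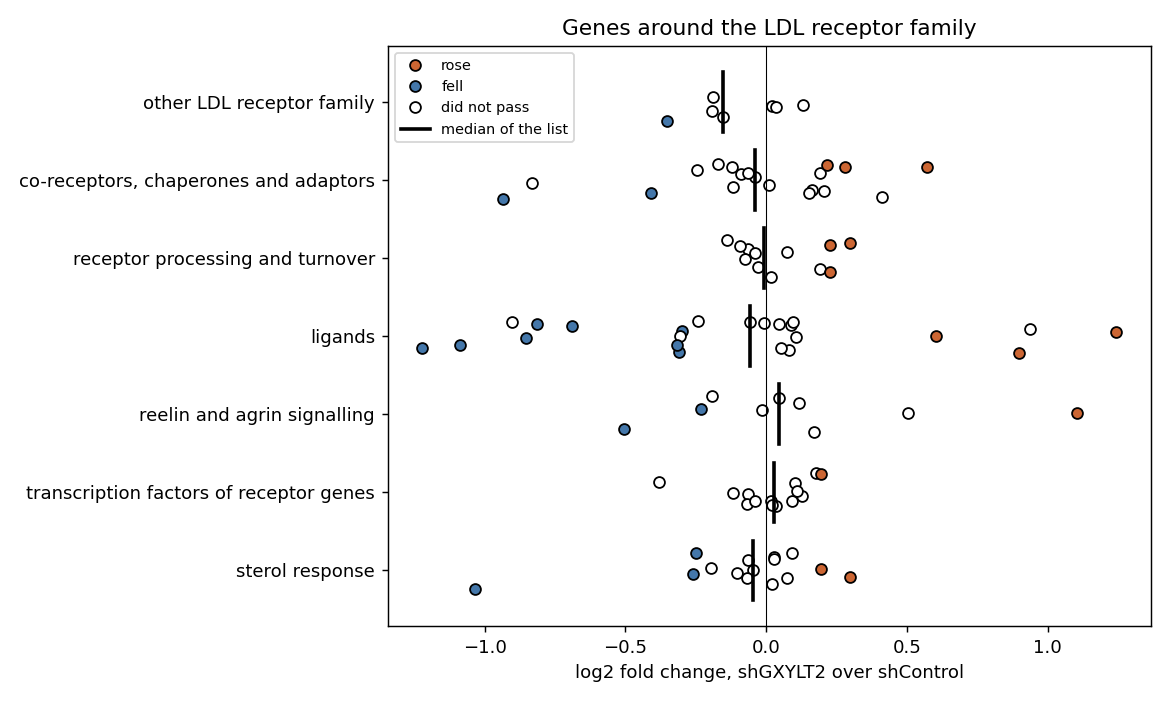
Log2 fold change of shGXYLT2 over shControl for each tested gene of 7 lists around the LDL receptor family (points; vertical position within a row is arbitrary), filled where the gene passed the edgeR test, with the median of each list as a black bar. Ligands spread from -1.22 (DKK1) to 1.24 (SELENOP), and all 7 medians lie between -0.15 and 0.05.

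Among genes for cutting and turnover of the receptors, 12 of 13 were tested, 3 rose and 0 fell (edgeR; 4 genes had an unadjusted p below 0.05), or 25% against 12.2% of all genes, with a median log2 fold change of -0.01. MMP14, a membrane protease that sheds LRP1, rose from 161 to 189 CPM, and the gamma-secretase subunits NCSTN and PSENEN rose from 78.3 to 91.7 CPM and from 23.3 to 28.6 CPM (edgeR adjusted p = 0.012, 0.020 and 0.037). Leaving out shControl replicate 1, 2 or 3 gave 0 changed genes in edgeR, and DESeq2 on all libraries gave 2. The adjusted p without a shControl library ran from 0.061 to 0.067 for MMP14, from 0.075 to 0.11 for NCSTN and from 0.075 to 0.20 for PSENEN. PSENEN was also lost without shGXYLT2 replicates 2 and 3 (0.081 and 0.076) and NCSTN without shGXYLT2 replicate 1 (0.059). MYLIP, a degrader of receptors, had an edgeR adjusted p of 0.66.

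In the list of reelin and agrin signalling, which holds the pathways of LRP8, VLDLR and LRP4, 9 of 14 genes were tested, 1 rose and 2 fell, or 33.3% against 12.2% of all genes, with a median log2 fold change of 0.05. CRK and CRKL, adaptors downstream of reelin, fell from 76.8 to 54.1 CPM and from 147 to 125 CPM (edgeR adjusted p = 3.7e-05 and 0.012). COLQ, which anchors acetylcholinesterase, averaged 0.515 and 1.09 CPM (edgeR adjusted p = 0.042), a call that only the fit without shGXYLT2 replicate 3 kept among those that left out 1 library, the others giving 0.086 to 0.17. CRKL was lost without shControl replicate 1 or shGXYLT2 replicate 1 (0.11 and 0.062), which each left 1 changed gene. RELN and DAB1, the ligand and the adaptor of the reelin pathway, stayed below 1 CPM in every library, and MUSK, the partner of LRP4, had counts in 1 library only.

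Of 18 transcription factors known to act on these receptor genes 14 were tested and 1 passed, or 7.14% against 12.2% of all genes. The list had a median log2 fold change of 0.03. The gene that passed was SREBF2, a regulator of cholesterol synthesis, which rose from 162 to 185 CPM (edgeR adjusted p = 0.040). Leaving out shControl replicates 1, 2 or 3 or shGXYLT2 replicate 1 gave 0.20, 0.085, 0.15 and 0.15, and so 0 changed genes; leaving out shGXYLT2 replicate 2 gave 2 changed genes. The retinoid receptors RXRA and RARG averaged 57.8 and 63.2 CPM, and 145 and 154 CPM (edgeR adjusted p = 0.33 and 0.43). HNF4A and PPARG were too low to test.

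Of 15 genes of the sterol response, all tested, 2 rose and 3 fell, or 33.3% against 12.2% of all genes, with a median log2 fold change of -0.05. STARD4, a sterol carrier, fell from 72.8, 71.4 and 83.7 CPM to 39.5, 41.0 and 30.7 CPM (edgeR adjusted p = 3.0e-06), while the synthetic enzyme gene SQLE did not pass (0.45). INSIG1 and LSS fell by 0.25 and 0.26 and ABCA1, a cholesterol exporter, rose by 0.30 on the log2 scale. Leaving out shControl replicates 1, 2 or 3 left 2, 1 and 2 changed genes, and leaving out shGXYLT2 replicates 1 or 2 left 3 each. STARD4 passed in each of these fits. The largest adjusted p were 0.14 for INSIG1 (without shGXYLT2 replicate 1), 0.10 for LSS (without shControl replicate 3) and 0.10 for ABCA1 (without shControl replicate 2).

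Markers of tissues known for megalin stayed low in both groups. Of 15 proximal tubule markers 11 were below 1 CPM in every library, with SLC34A1, SLC22A6, SLC22A8 and DPEP1 at 0, and their summed level was 5.86 to 8.11 CPM in shControl and 6.90 to 8.82 CPM in shGXYLT2. All 7 thyroid markers were below 1 CPM, summing to at most 0.792 and 0.891 CPM. The 10 markers of visceral endoderm and hepatocytes summed to 3.06 to 3.17 CPM and 1.44 to 2.48 CPM, with TTR and SOX17 at 0. Of these lists 4, 0 and 2 genes were tested and 0 passed in edgeR, with an unadjusted p below 0.05 for 2 proximal tubule genes and 2 endoderm genes (CUBN is in both lists). The tubule genes were GGT1, higher in shGXYLT2 (means of 1.83 CPM in shControl and 3.20 CPM in shGXYLT2), and CUBN, lower. The endoderm genes CUBN and FOXA2 (1.39 and 0.831 CPM) were both lower in shGXYLT2. Leukocyte markers summed to 1.80 to 2.22 CPM and 1.16 to 1.88 CPM. The 8 mesenchymal markers summed to 3670 to 3855 CPM and 3228 to 3491 CPM. Most of this sum was VIM (means of 2669 and 2526 CPM), while CDH2 stayed below 1 CPM in every library. Of 7 mesenchymal markers tested 2 rose and 1 fell, or 42.9% against 12.2% of all genes. Named after their values were seen, the fibronectin gene FN1 rose from 38.7 to 78.7 CPM, and the collagen genes COL1A2 and COL1A1 rose from 51.9 to 66.3 CPM and fell from 824 to 542 CPM (edgeR adjusted p = 2.3e-09, 0.0028 and 2.0e-06). The part of these markers in the LRP2 difference was not tested. The 12 gastric markers summed to 6.50 to 7.37 CPM and 7.14 to 9.94 CPM, and the gastric mucin gene MUC6, named after its values were seen, rose from 2.05 to 4.22 CPM (edgeR adjusted p = 0.0029).

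The genes most like LRP2 over the 6 libraries were found by the Euclidean distance between log2 CPM profiles centred on the shControl mean, among 12600 other tested genes whose mean log2 CPM reached 1. The nearest was STC1, a secreted glycoprotein, at a distance of 1.27. Its level was 2.76, 3.05 and 2.86 CPM in shControl and 13.5, 14.3 and 12.8 CPM in shGXYLT2. CHODL followed at 1.59, the cadherin gene CDH10 at 1.85, GNG4 at 2.02 and CKMT1A at 2.22. CDH10 had a shControl mean of 2.85 ± 0.584 CPM and a shGXYLT2 mean of 10.8 ± 1.40 CPM (SD, n = 3). CKMT1A has a near-identical copy, CKMT1B, so its counts are uncertain. These distances rest mostly on the size of the difference between the groups, for which LRP2 was chosen.

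A 7-base word in 3′ UTRs that was found earlier in these data to mark many fallen genes was searched in the longest 3′ UTR of each gene (GENCODE, at least 100 bases). Of 12373 tested genes searched 8.35% held it, and of those that fell 25.4% did, an excess that the choice of the word fixed in advance. Among the 10 genes here it stood once, in the 3′ UTR of VLDLR, 1666 bases after the stop codon. The longest 3′ UTRs of LRP8 and LRP12, of 4654 and 1442 bases, did not hold it. The part of the word in any of these differences was not tested. The VLDLR site covers bases 2655523 to 2655551 of chromosome 9, plus strand (GRCh38), and is shown with the word in capitals.
VLDLR: aatcagtggatGACTCATatttcacttgc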

How the data were processed

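RNA-seq libraries of 3 shControl and 3 shGXYLT2 samples were grouped by their titles. The submitters' processing notes name StringTie, HISAT2, fastp and GRCh38.p13. Versions, how reads were counted, and the annotation used are not stated there. The values the authors deposited are estimated counts per gene in 1 table, of which 12.3% are not whole; a gene length column stands beside them with no definition. Counts were rounded and analysed in R 4.3.3 with edgeR 4.0.16: filterByExpr at its defaults, TMM factors, robust quasi-likelihood fit with group as the only term, two-sided tests, and Benjamini-Hochberg adjustment over 15693 genes. Means carry the SD over 3 libraries. Each SE was the absolute log2 fold change divided by the square root of the F statistic from the quasi-likelihood test. The SE bar of LRP2 in the figures comes from the same fit and is not to be read as a test of LRP2. Alternatives were DESeq2 1.42.0, RLE and upper-quartile factors, no filter, a filter at 1 CPM in 3 libraries, a replicate block and leaving out each library. Pairs of libraries differed by chi-square statistics of 1.95 to 18.7 per degree of freedom, so none was taken as a copy. The range was 1.95 to 3.97 within shControl, 5.86 to 11 within shGXYLT2 and 8.54 to 18.7 between the groups. Coordinates and 3′ UTRs came from GENCODE release 29, promoters from RefSeq, and figures from matplotlib 3.10.9.

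The genes and lists were chosen with earlier results of these data known. Named genes are the 10 genes, GXYLT2 and GXYLT1, up to 3 risen and 3 fallen genes of each list (the 2 most abundant where none passed), changed genes near LRP2 and the 5 nearest profiles; the remaining family genes, further list members, and marker genes were named after their values were seen. Some genes that the lists count are not reported here by name.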

Additional observations from a re-analysis of the deposited data

How the results depend on the processing

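The direction of each named gene that passed was the same under each of the 12 alternatives that tested it (11 for COLQ, which the 1 CPM filter removed), and 19 of these 40 genes passed under every alternative that tested them, LRP8, DAB2, APOE, SELENOP and KLHL41 among them. The LRP2 ratio was 7.59 to 7.89 over the scalings and left-out libraries. With 1 library left out, changed genes numbered 960 to 2347 in all, 1 to 4 among the 9 relatives, 0 to 1 in the further family genes, 2 to 6 among partners, 0 to 3 among processing genes, 7 to 10 among ligands, 1 to 4 in reelin and agrin signalling, 0 to 2 among transcription factors, 1 to 6 in the sterol response and 1 to 3 near LRP2. The 2347 changed genes came from leaving out shGXYLT2 replicate 3. DESeq2 left 1 changed relative. The upper-quartile factors moved the median of all genes to 0.02. Some small differences that had not passed turned in sign when 1 library was left out, over ranges of log2 fold change from -0.081 (without shGXYLT2 replicate 2) to 0.156 for LDLRAD4, from -0.191 to 0.023 (without shControl replicate 1) for LRP10, from -0.232 to 0.028 (without shGXYLT2 replicate 2) for LRP3 and from -0.101 to 0.023 (without shGXYLT2 replicate 2) for LRPAP1. LDLRAD4 was also at -0.037 without shControl replicate 1. The cause was not tested.

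Replicate numbers, taken from the titles, did not pair the libraries, since deviations of same-numbered libraries correlated at 0.0052, -0.043 and -0.023. The submitters' sample descriptions number some libraries differently and with gaps, and a pairing by those numbers was not tested. With the replicate number as a block, 1471 genes passed, among them 1 of the 9 relatives, 1 processing gene, 0 transcription factors and 1 gene near LRP2. LRP1B rested on 16 to 54 counts per library, which limits its precision.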
